A study of Homo sapiens with 18 samples.

Results

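A set of 64 genes separated every tetraploid library from every diploid library of RPE1 clones, 36 of them higher and 28 lower in the tetraploid clones. The members were chosen by their measured levels. A gene was taken when the mean RPKM (reads per kilobase of gene and per M reads) of the 4N clone was at least 2 times that of its 2N partner, or its 2N partner at least 2 times the 4N clone, in each of 3 pairs. In addition, all 9 4N libraries had to lie on one side of all 9 2N libraries, and the mean of the higher ploidy had to be 0.01 RPKM or more. Of 57773 genes listed, 40853 were above 0 in any library, 29822 reached that minimum in either ploidy, and 77 passed. This is 0.258% of the 29822 genes, 0.144% higher and 0.114% lower. Of the 77 genes, 13 were left out by name, among them CCND2, PLAT, MBNL3, CDKN1A, BTG2 and SPATA18, which were higher in 4N, and ESRP1, DLX6 and HOXA3, which were lower. Because the rule used the contrast between 4N and 2N, that contrast is described below for the members and not tested.

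RPE1 is a human retinal pigment epithelium line immortalised with telomerase. The cells had been treated for 72 h with 2.5 uM ZM447439, an Aurora kinase inhibitor, and single survivors were grown into clones whose DNA content was read by flow cytometry. Groups 4N-1, 4N-2 and 4N-3 are each 1 tetraploid clone, and 2N-1, 2N-2 and 2N-3 are each 1 clone that stayed diploid, picked from the same plates as the tetraploid clone of the same number. Diploid controls had therefore met the inhibitor too. Clones 2N-2 and 4N-2 were in addition stained with Hoechst 33342, a DNA dye, before they were cloned. Poly(A) RNA of 3 libraries per clone, A to C, was sequenced with a stranded kit. A p-value here thus measures the spread between libraries of 1 clone, and what is shared by 1 clone and what belongs to its ploidy cannot be told apart within a pair.

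Aurora kinases drive chromosome segregation and the final cut between daughter cells, and a cell that fails to divide keeps the chromosomes of both would-be daughters. In many cells this sets off the p53 pathway and an arrest, so a tetraploid clone descends from a cell that went on dividing. Doubling all chromosomes alike does not by itself change the ratio between genes, and RPKM values, which are relative to the library, do not show a change that all genes share. A clone also carries forward whichever genes were on or off in its founder cell. Stable silencing of a gene is often accompanied by methylation of CpG sites (a C followed by a G) in its promoter, which makes CpG content a useful description of a promoter.

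The libraries held 37.2 M to 54.4 M reads in genes. Reads were recovered from the steps of the RPKM values, and levels below are in RPM (reads per M reads of the authors' scaling, not divided by length, so they compare clones and not genes). In bulk RNA, fewer cells that express a gene and less RNA per cell cannot be told apart. MITF and OTX2, regulators of pigment epithelium, were between 14.8 and 23.3 and between 21.6 and 46.5 RPM, but the visual cycle gene RPE65 never exceeded 0.567 and 5 of the 17 pigment epithelium markers found in the table were under 0.25 in all libraries. The sum of that list ran from 111 to 139 RPM in 2N and from 82.6 to 231 in 4N. KRT8 and KRT18, keratins of simple epithelia, were at 200 RPM or more in every library, but only 3 of the 6 simple epithelium markers passed the filter of the fit. Of 12 fibroblast and smooth muscle markers 11 passed it. Their sum ran from 559.5 to 903 RPM in 2N and from 904 to 1241 in 4N, beside 479 to 939 and 549.5 to 770 for simple epithelium. The 8 blood markers summed to no more than 0.617. Library A of 2N-3 stood apart from B and C of its clone on principal components 2 and 3 (79.1 and 66.0 against 14.3 to 16.5 and -8.41 to -5.80), and library C of 4N-3 was also set off from A and B (-24.1 against -6.45 and -5.18 on component 1). Without both libraries the rule gave 68 members, of which 57 were shared. The 7 members lost were AC119751.3, ANKRD20A11P, ANKRD20A5P, CRYZL2P-SEC16B, PTCHD4, ZNF781 and 1 gene without a name. All 62 members that passed the filter of the fit kept their sign in pair 3 without both, with changes of the log2 ratio between -0.98 and 0.24.

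Promoter sequence was available for 33 of the members (RefSeq table, GRCh38.p14), as the 250 bases before the start site. By the usual measure, a CpG count at least 0.6 times that expected from the base content, 9 of 16 promoters of members higher in 4N and 10 of 17 of members lower in 4N were CpG rich, beside 47.4% of all 27305 promoters in the table. The median number of CpG sites was 20 in the promoters of members higher in 4N, 16 in those lower in 4N and 11 over all promoters. The range ran from 0 to 39 and from 0 to 36. For some members, such as SERPINB2, SKAP2, LCP1, CD163L1 and SLC16A9, these bases lie inside the GENCODE span. Their counts thus belong to an inner start, and the 0 among members lower in 4N is that of SERPINB2. By these RefSeq starts the members include genes with dense CpG promoters and genes with none in either direction. To make that visible 4 promoters are shown, with CpG in capitals. All are read 5′ to 3′ on the strand of the gene and lie just upstream of the RefSeq start. For PTCHD4 that start lies beyond the GENCODE span given below (chr6:47878028-48068689), so its sequence belongs to another start than that gene model. CGREF1 is at chr2:27119129-27119378 on the minus strand with 19 CpG, and PTCHD4 at chr6:48111198-48111447 on the minus strand with 0. KIAA0040 is at chr1:175193000-175193237 on the minus strand with 20 CpG, where only the 238 bases outside the GENCODE gene are given, and LYPD6 at chr2:149329735-149329984 on the plus strand with 8. Of these, CGREF1 and PTCHD4 were higher and KIAA0040 and LYPD6 lower in all 4N libraries.
CGREF1: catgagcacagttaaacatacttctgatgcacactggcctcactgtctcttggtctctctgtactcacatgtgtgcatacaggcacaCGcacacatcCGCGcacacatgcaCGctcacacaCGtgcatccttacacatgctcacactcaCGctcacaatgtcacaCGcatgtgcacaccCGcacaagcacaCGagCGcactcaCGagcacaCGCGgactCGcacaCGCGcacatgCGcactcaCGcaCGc
PTCHD4: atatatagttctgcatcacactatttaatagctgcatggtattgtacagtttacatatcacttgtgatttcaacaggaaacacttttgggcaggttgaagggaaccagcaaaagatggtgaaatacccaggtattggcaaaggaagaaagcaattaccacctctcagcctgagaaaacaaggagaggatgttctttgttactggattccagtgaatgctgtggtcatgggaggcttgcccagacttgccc
KIAA0040: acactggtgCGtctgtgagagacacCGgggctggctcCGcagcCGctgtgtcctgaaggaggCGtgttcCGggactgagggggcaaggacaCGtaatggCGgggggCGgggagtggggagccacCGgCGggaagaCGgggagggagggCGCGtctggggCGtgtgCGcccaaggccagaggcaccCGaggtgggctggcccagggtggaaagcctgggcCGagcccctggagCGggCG
LYPD6: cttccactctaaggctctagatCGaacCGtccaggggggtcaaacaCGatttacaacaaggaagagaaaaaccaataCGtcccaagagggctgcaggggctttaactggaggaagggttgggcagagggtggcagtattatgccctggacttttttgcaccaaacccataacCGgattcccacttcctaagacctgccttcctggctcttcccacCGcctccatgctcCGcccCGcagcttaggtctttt

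Most of the 64 members were weakly expressed. In the ploidy with the higher level, 34 had a mean under 0.1 RPKM, 22 lay between 0.1 and 1, and 8 reached 1 RPKM. The authors' RPKM divide by the whole genomic span of a gene, introns included, so long genes get small values. In reads, the members higher in 4N had a median of 1037 over the 9 4N libraries (38 to 28183) and those lower in 4N a median of 557 over the 9 2N libraries (64 to 17236). GENCODE gave a position to 53 members, of which 37 are protein coding, 7 pseudogenes and 9 long noncoding RNAs. Protein-coding genes made up 69.8% of these members and 51.5% of the annotated genes at the RPKM minimum, and pseudogenes 13.2% and 21.7%. All 7 pseudogenes were higher in 4N, as were 10 of the 11 members without an entry. The median log2 ratio of the fitted members higher in 4N was 2.62, 2.32 and 1.59 in pairs 1, 2 and 3, and that of those lower in 4N was -2.19, -2.27 and -1.96. Over all 22820 genes fitted the medians were 0.02, -0.02 and 0.01.

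**Figure D1:**
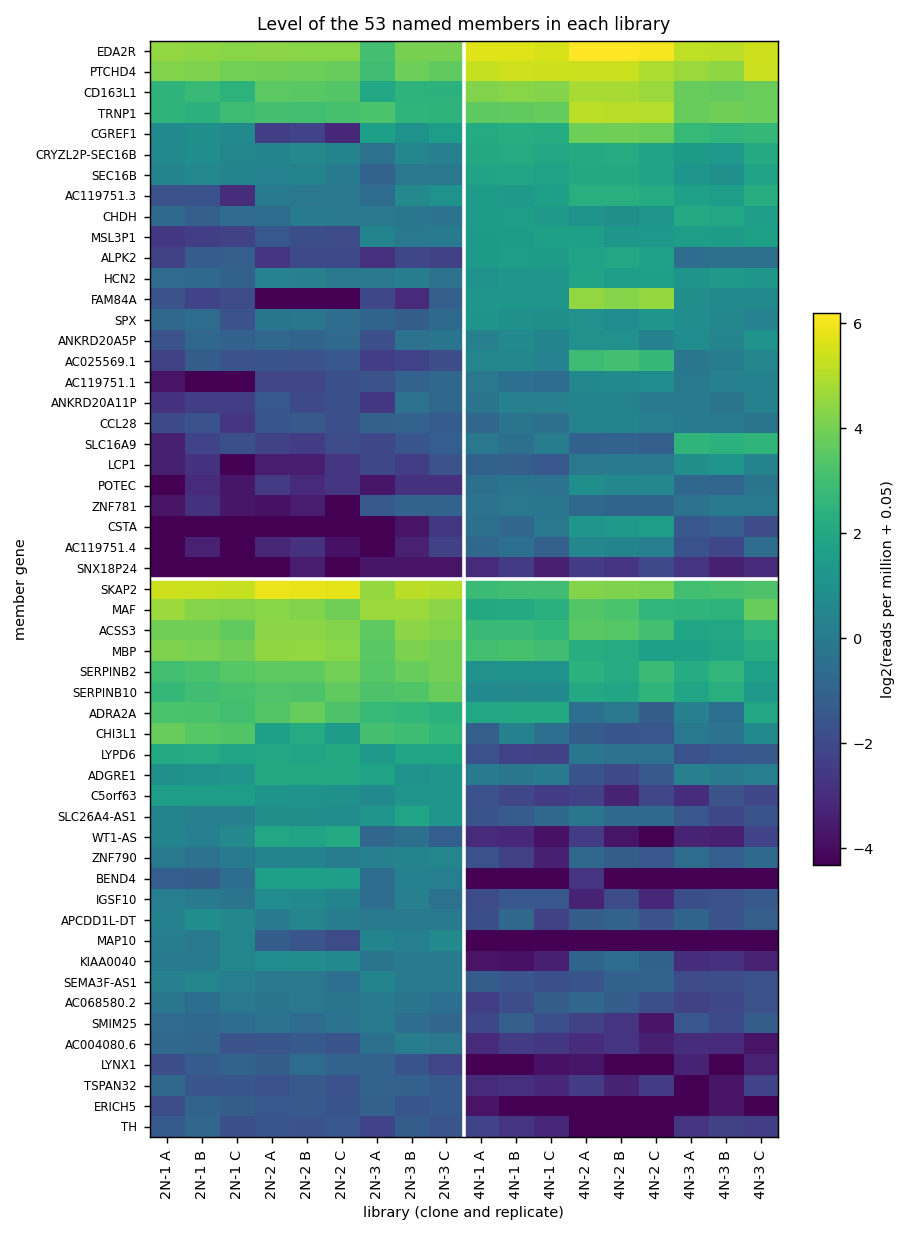
Level of the 53 members with a GENCODE position in each of the 18 libraries, as log2(RPM + 0.05); rows are genes, columns are libraries, and white lines part the 2N from the 4N libraries and the members higher in 4N (top) from those lower in 4N. EDA2R and SKAP2 head the 2 blocks, while MAP10 is at 0 in all 9 4N libraries and CSTA in 7 of 9 2N libraries.

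EDA2R (chrX:66595637-66639298, minus strand) encodes a receptor of the TNF receptor family for the A2 form of ectodysplasin and is a known p53 target. Its 2N libraries were at 22.2, 21.2 and 20.3 RPM in 2N-1, at 20.5, 20.1 and 20.2 in 2N-2 and at 8.31, 16.4 and 16.5 in 2N-3. Its 4N libraries were at 51.5, 51.6 and 47.5 in 4N-1, at 73.3, 73.3 and 66.0 in 4N-2 and at 36.7, 35.4 and 41.8 in 4N-3. The ploidies did not overlap, and library A of 2N-3 lay far below B and C of its own clone. The 4N clones were 2.37, 3.49 and 2.76 times their partners in pairs 1, 2 and 3.

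PTCHD4 (chr6:47878028-48068689, minus strand), a protein with a patched domain, was at 13.5 to 18.6 RPM in the libraries of 2N-1 and 2N-2 and at 7.84, 14.6 and 12.2 in 2N-3. The 4N values were 39.1, 43.5 and 41.9 in 4N-1, 40.3, 40.9 and 29.9 in 4N-2, and 24.6, 21.5 and 41.0 in 4N-3. Here both of the libraries that stand apart move the result, since A of 2N-3 is the lowest 2N value and C of 4N-3 the highest of its clone. Ratios of the means were 2.40, 2.58 and 2.51, and without both libraries PTCHD4 was not a member. It also shares sequence at 98% identity or more with transcripts at 3 other loci, the longest match being 301 bases. CD163L1, a scavenger receptor with cysteine-rich domains, was at 5.99 ± 0.61, 11.1 ± 0.74 and 4.89 ± 0.96 RPM in 2N-1, 2N-2 and 2N-3 and at 19.1 ± 0.88, 26.9 ± 2.1 and 13.3 ± 0.68 in 4N-1, 4N-2 and 4N-3 (SD, n = 3). Ratios in its pairs were 3.19, 2.43 and 2.73, although the highest 2N library came within 1.08 times of the lowest 4N one. CCL28, a chemokine of mucosal epithelia, had a median of 0.302 in 2N (0.108 to 0.445) and of 0.895 in 4N (0.498 to 1.30).

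The levels of 3 coding genes were near 0 in some diploid clones and clearly above it in all tetraploid clones. FAM84A (LRATD1; chr2:14632686-14650814, plus strand) had 12, 7 and 8 reads in 2N-1, no read in any library of 2N-2, and 7, 3 and 18 reads in 2N-3. It had 96, 110 and 97 reads in 4N-1, 879, 766 and 1038 in 4N-2, and 68, 69 and 65 in 4N-3. Clone 4N-2 was thus far above the other two tetraploid clones, at 21.6 ± 2.1 RPM against 2.25 ± 0.077 and 1.63 ± 0.14 (SD, n = 3). The ratio was 10.2 in pair 1 and 7.27 in pair 3, and at least 1081-fold in pair 2, where a floor of 3 reads over the 3 libraries stands in for the 0 of 2N-2. The nameless member ENSG00000265629 followed the same course, with 0 reads in 2N-2 and 659, 606 and 820 in 4N-2.

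CSTA (chr3:122325244-122341972, plus strand) encodes cystatin A, an inhibitor of cysteine proteases known from keratinocytes. No read was counted in the 6 libraries of 2N-1 and 2N-2, and 0, 1 and 5 in 2N-3. All 9 4N libraries had reads: 29, 24 and 39 in 4N-1, 89, 99 and 129 in 4N-2 and 12, 17 and 9 in 4N-3. The ratio was at least 27.8-fold in pair 1 and at least 128-fold in pair 2, against the same floor, and 6.26 in pair 3 with a counting interval of 2.63 to 18.1 (95%, exact). CGREF1 (chr2:27098889-27119115, minus strand), a secreted EF-hand protein, was at 1.60, 1.83 and 1.60 RPM in 2N-1, at 0.141, 0.164 and 0.0662 in 2N-2 and at 2.99, 2.09 and 2.85 in 2N-3. In 4N the values were 4.41, 4.66 and 4.57, then 14.7, 15.1 and 14.1, then 6.65, 5.99 and 6.46. Pair 2 joined the lowest diploid clone to the highest tetraploid clone, with a ratio of 118 where pairs 1 and 3 had 2.71 and 2.41.

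CHDH, the mitochondrial choline dehydrogenase that starts betaine synthesis, had a median of 0.752 RPM in 2N (0.410 to 0.949) and of 2.75 in 4N (1.83 to 4.22). SLC16A9, a monocarboxylate transporter, was at 0.858, 0.429 and 5.62 in 4N-1, 4N-2 and 4N-3 and at 0.153, 0.170 and 0.295 in the diploid clones. The lead of 4N-3 here was the reverse of FAM84A, where 4N-2 led. SEC16B, which helps organise the sites where vesicles leave the endoplasmic reticulum, had a median of 1.23 in 2N and 3.43 in 4N, and HCN2, a pacemaker channel, of 0.883 and 2.32. SPX, the precursor of the peptide hormone spexin, had a median of 0.570 in 2N (0.271 to 0.822) and 1.85 in 4N (1.22 to 2.31).

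TRNP1, a nuclear protein of neural progenitors, was at 12.4, 33.8 and 14.1 RPM in 4N-1, 4N-2 and 4N-3 and at 6.10, 8.49 and 6.95 in their partners. ALPK2, an alpha kinase, had a median of 0.187 in 2N (0.0831 to 0.406) and 2.70 in 4N (0.634 to 3.84). LCP1, the actin-bundling protein L-plastin of blood cells, had a median of 0.0964 in 2N and 0.875 in 4N, while the summed blood markers stayed between 0.203 and 0.617 in 4N and between 0.243 and 0.554 in 2N. Its highest 2N and lowest 4N libraries were 1.14-fold apart. ZNF781, a zinc finger gene, had means of 0.0488 and 0.0189 in 2N-1 and 2N-2 but 0.411 in 2N-3, beside 0.815, 0.493 and 0.865 in the tetraploid clones. The antisense gene AC025569.1 was at 7.32 in 4N-2 and at 1.35 and 1.06 in the other two tetraploid clones.

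MSL3P1 (chr2:233865437-233868444, minus strand), a processed copy of a gene for a subunit of the MSL chromatin complex, was at 2.79 ± 0.26, 2.58 ± 0.38 and 2.90 ± 0.22 RPM in 4N-1, 4N-2 and 4N-3. Its diploid means were 0.140, 0.260 and 1.03. The tetraploid clones were alike and the diploid clones were not. POTEC, of a family with many near-identical copies, had a median of 0.0730 in 2N and 0.775 in 4N, and ANKRD20A5P and ANKRD20A11P, pseudogenes of an ankyrin repeat family, of 0.524 and 1.57 and of 0.201 and 1.14. Without both libraries that stand apart the log2 ratio in pair 3 went from 1.54 to 0.90 for ANKRD20A5P and from 1.30 to 0.47 for ANKRD20A11P. Of the 53 annotated members, 7 share 100 bases or more at 98% identity with a transcript of another locus, and all 7 were higher in 4N: ANKRD20A11P, POTEC, PTCHD4, ANKRD20A5P, AC119751.1, AC119751.3 and SNX18P24. With a gene that overlaps them, 22 of the 53 share such sequence, among them members of both directions. How the authors' counting treated reads that fit several loci or genes is not given in the sources used here, so the levels of all these members are uncertain. The most counted member was ENSG00000203849, without an entry in the annotation used, at 2.84, 16.2 and 21.6 in 2N-1, 2N-2 and 2N-3 and at 55.7, 95.1 and 72.0 in the tetraploid clones.

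Among the members lower in 4N, 4 coding genes were at or close to 0 in the tetraploid clones. MAP10 (chr1:232804892-232808407, plus strand) encodes a microtubule-associated protein of the spindle and midbody. It had 44, 37 and 50 reads in 2N-1, 19, 16 and 10 in 2N-2, 46, 47 and 67 in 2N-3, and none in all 9 4N libraries. With a floor of 3 reads per clone this is at least 48.1-fold lower in pair 1, at least 12.4-fold in pair 2 and at least 53.9-fold in pair 3. Its diploid levels were 1.08 ± 0.24, 0.299 ± 0.081 and 1.30 ± 0.21 RPM (SD, n = 3), so that 2N-2 was the lowest.

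BEND4 (chr4:42110938-42152878, minus strand), a gene with a BEN domain, had 17, 16 and 24 reads in 2N-1, 148, 169 and 131 in 2N-2 and 22, 50 and 49 in 2N-3. Its only 4N reads were 4 in library A of 4N-2. The bounds were at least 20.9-fold lower in pair 1 and at least 40.8-fold in pair 3, and the ratio in pair 2 was 92.7 with a counting interval of 35.9 to 342. In BEND4 the diploid clone 2N-2 was the highest, whereas in MAP10 it was the lowest. ERICH5 had 133 reads in the 2N libraries, 10 to 19 in each, and 2 in all 4N libraries. LYNX1, which binds nicotinic acetylcholine receptors, had 150 reads in 2N and 6 in 4N, with 5 of 9 4N libraries at 0.

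**Figure D2:**
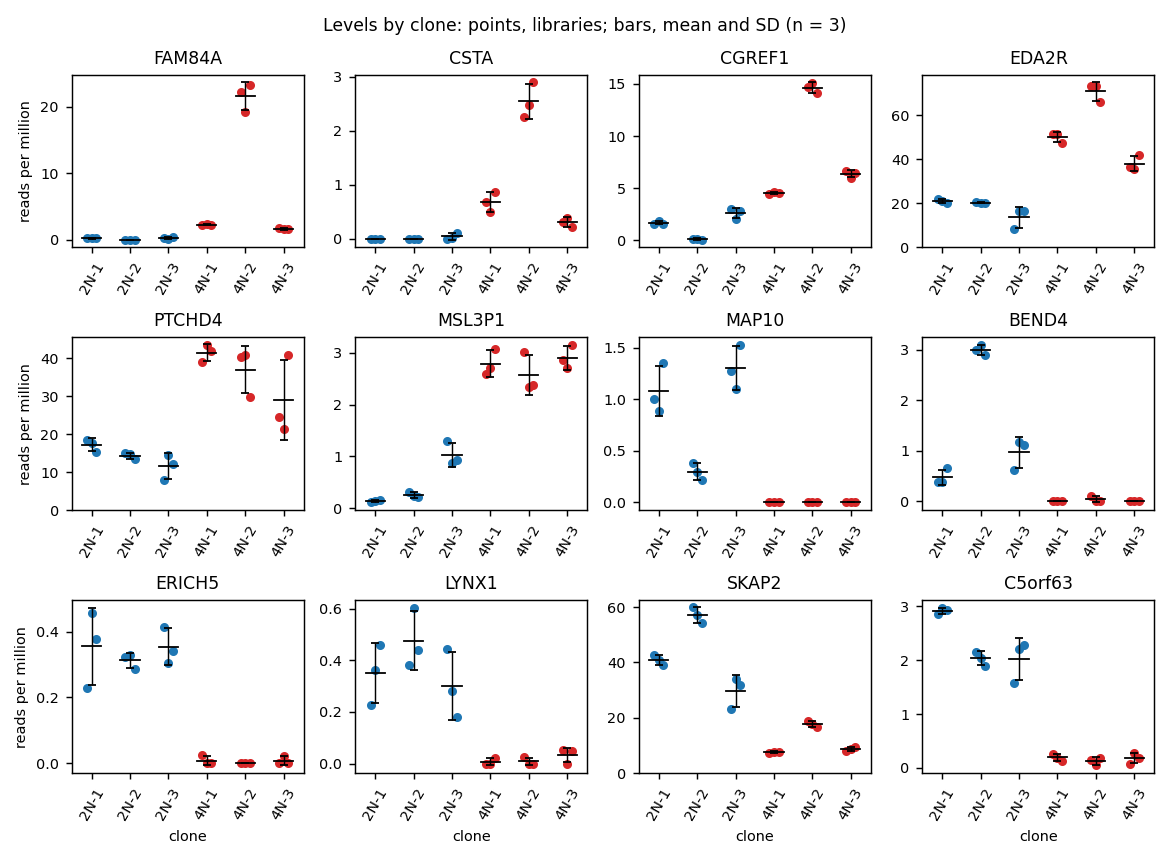
RPM of 12 members in each clone (x axis): points are libraries, coloured blue for 2N and red for 4N, and the horizontal bars and whiskers are the mean and SD of 3 libraries. FAM84A, CSTA and CGREF1 peak in 4N-2, MSL3P1 is level over the tetraploid clones, and MAP10, BEND4, ERICH5 and LYNX1 lie at or near 0 in 4N.

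C5orf63 (chr5:127042558-127073492, minus strand), a glutaredoxin-like gene, was at 2.91 ± 0.056, 2.03 ± 0.13 and 2.02 ± 0.38 RPM in 2N-1, 2N-2 and 2N-3 and at 0.195 ± 0.064, 0.127 ± 0.068 and 0.181 ± 0.098 in 4N-1, 4N-2 and 4N-3. The lowest 2N library exceeded the highest 4N library 5.73-fold, and the ratios of 2N to 4N were 15.0, 16.0 and 11.2. LYPD6 (chr2:149329985-149474148, plus strand), a membrane-anchored protein that modulates Wnt receptors, was at 4.07 ± 0.44, 3.85 ± 0.22 and 3.30 ± 0.70 in 2N and at 0.195 ± 0.057, 0.760 ± 0.069 and 0.305 ± 0.035 in 4N. Its promoter is printed above. SKAP2 (chr7:26667062-26995239, minus strand), an adaptor of Src family kinases, was at 42.6, 40.9 and 39.1 in 2N-1, 59.8, 57.1 and 54.1 in 2N-2, and 23.0, 34.1 and 31.8 in 2N-3. In 4N it was at 7.14, 7.70 and 7.71, then 18.8, 17.8 and 16.7, then 7.97, 8.62 and 9.46. Both ploidies had their highest SKAP2 level in pair 2.

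CHI3L1, a chitinase-like glycoprotein, was at 11.5, 3.45 and 7.39 RPM in 2N-1, 2N-2 and 2N-3 and at 0.756, 0.332 and 1.08 in 4N. ADRA2A, an adrenergic receptor, was at 0.631 in 4N-2 beside 11.1 in 2N-2, and at 3.98 in 4N-1 beside 8.78 in 2N-1. In pair 3 it was at 1.16, 0.665 and 3.78 in the libraries of 4N-3 beside a mean of 5.98 in 2N-3, and the log2 ratio went from -2.01 to -2.62 without both libraries that stand apart. ADGRE1, an adhesion receptor known from macrophages, had ratios of 2N to 4N of 2.24, 15.0 and 2.39 in the pairs. Both receptors had their largest change in pair 2. IGSF10, an immunoglobulin superfamily gene, had ratios of 3.36, 13.0 and 3.04, also largest in pair 2. SERPINB2, an inhibitor of plasminogen activators, was at 9.33, 13.2 and 13.4 in 2N and at 2.00, 5.58 and 4.59 in 4N.

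MAF, a leucine zipper factor, was at 20.7, 17.9 and 23.2 RPM in 2N and at 4.49, 8.58 and 8.37 in 4N. ACSS3, a mitochondrial acyl-CoA synthetase, had a median of 18.3 in 2N and 6.74 in 4N. MBP, whose locus makes the myelin basic proteins and the wider expressed Golli forms, was at 16.7, 21.5 and 14.9 and at 8.13, 4.00 and 3.79. It is also 1 of 8 listed neuron and glia markers, whose sum ran from 230 to 271 in 2N and from 188 to 232 in 4N. The ratio closest to the limit of the rule among members lower in 4N was that of ACSS3 (2.01 in pair 2), and CA9, at 1.97, was just outside. On the higher side TRNP1 had 2.02 and a gene without a name 1.94. At the level limit of 0.01 RPKM, LCP1 (0.0117) and APCDD1L-DT (0.0112) were inside, and EEF1A2 (0.00945) and HOXA-AS2 (0.00858) outside. KIAA0040, of unknown role, was at 1.09, 1.63 and 0.898 in 2N and at 0.0298, 0.503 and 0.0726 in 4N. ZNF790, a zinc finger gene, had a median of 1.16 in 2N and 0.376 in 4N. Among the long noncoding members, SLC26A4-AS1 had ratios of 2N to 4N of 3.09, 2.68 and 10.3 in the pairs, SEMA3F-AS1 of 3.86, 2.09 and 4.47, and SMIM25 of 2.12, 7.57 and 2.31. APCDD1L-DT had 4.80, 3.03 and 2.40. The largest change was thus in pair 3 for SLC26A4-AS1 and SEMA3F-AS1, in pair 2 for SMIM25 and in pair 1 for APCDD1L-DT.

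The rule keeps the ploidies apart but says nothing of clones within a ploidy, which were tested with limma's moderated F test over all genes (called at an adjusted p under 0.05 by Benjamini-Hochberg and a span of 2-fold or more). Among the diploid clones 22 of 62 fitted members were called, beside 2.32% of all 22820 genes. Among the tetraploid clones 31 of 62 were called, beside 19.8%. Of the members higher in 4N, 16 were called in each ploidy, 9 in both and 12 in neither. Of those lower in 4N, 6 were called among diploid and 15 among tetraploid clones, 2 in both and 8 in neither. The members were picked from the same 18 values, and several, such as CSTA, LCP1 and MAP10, passed the filter of the fit only through the ploidy where they are high. The counts are therefore a description, and nothing is read from them beside the shares of all genes. With a pseudocount of 0.5 RPM the calls were 13 and 20.

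Single genes show what this means. CGREF1 spanned 3.98 log2 units among the diploid clones (adjusted p = 2.6e-10, limma) and 1.68 among the tetraploid clones (2.6e-06). MSL3P1 spanned 2.50 among diploid clones (2.3e-07) and 0.18 among tetraploid clones (0.70), and ZNF781 2.77 (3.9e-06) and 0.75 (0.048). SLC16A9 was the other way round, with 0.87 (0.24) among diploid and 3.56 (2.2e-07) among tetraploid clones, as were KIAA0040 with 0.83 (0.070) and 2.79 (2.6e-08) and LYPD6 with 0.31 (0.46) and 1.75 (2.2e-06). For C5orf63 the spans were 0.54 (0.43) and 0.52 (0.37), and for CRYZL2P-SEC16B 0.54 (0.30) and 0.43 (0.19), neither called. A p that misses the threshold does not show that the clones were alike.

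**Figure D3:**
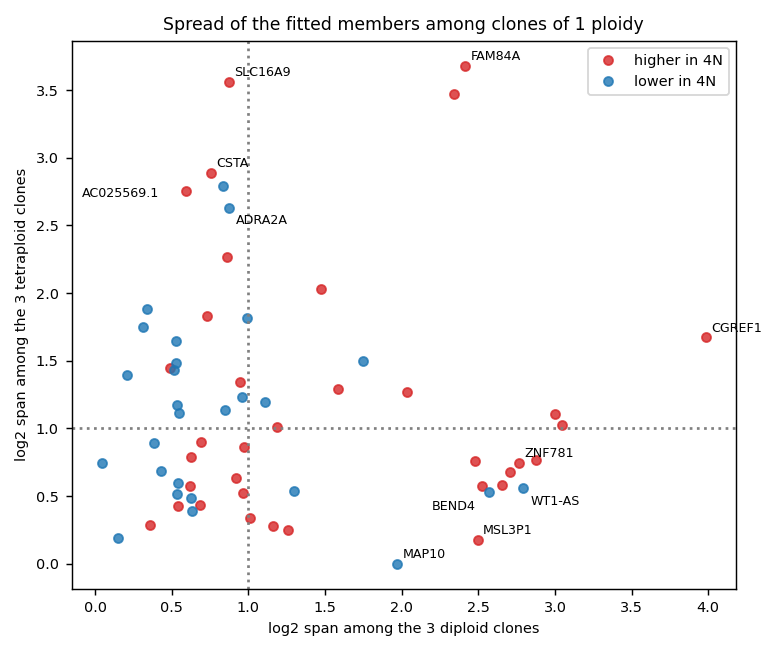
Log2 span between the highest and the lowest clone among the 3 diploid (x axis) and the 3 tetraploid clones (y axis) for each of the 62 fitted members, red where higher in 4N and blue where lower; dotted lines mark a 2-fold span. CGREF1 lies far right at 3.98, SLC16A9 high at 3.56 on the y axis, and MSL3P1 low right at 2.50 and 0.18.

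The order of the clones was uneven in the members higher in 4N. Clone 4N-2 was the highest tetraploid clone for 27 of the 36, 4N-3 for 6 and 4N-1 for 3. Among the diploid clones 2N-3 was the highest for 24 and 2N-1 the lowest for 25. The largest of the 3 changes fell in pair 1 for 19, in pair 2 for 14 and in pair 3 for 2 of the 35 fitted. For the 27 fitted members lower in 4N it fell in pair 2 for 11, in pair 1 for 9 and in pair 3 for 7. Many members behind the diploid order of those higher in 4N have no annotation entry or are pseudogenes, and several ran alike. ENSG00000203849 was at 2.84, 16.2 and 21.6 RPM in 2N-1, 2N-2 and 2N-3, and ENSG00000232274 at 2.15, 10.8 and 18.5. Whether such members share reads was not tested, so these counts may not be of independent genes. Over all genes, pair 2 also had the most calls, with 6.56% of genes higher and 7.48% lower in 4N by limma, against 2.17% and 2.58% in pair 1 and 1.07% and 1.48% in pair 3.

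Grouping members whose spans lie within 500 kb of each other gave 6 neighbourhoods with 15 members. SEC16B and CRYZL2P-SEC16B overlap on chromosome 1 (chr1:177923956-177984303 and chr1:177928788-178038007), the latter being a read-through transcript, so reads may count for either. CRYZL2P, the other end of the read-through, had log2 ratios of 1.42, 0.12 and 0.75 and was called in pair 1 (adjusted p = 0.0077, limma). SERPINB2 and SERPINB10 also overlap (chr18:63871692-63903890 and chr18:63897174-63936111) and had like ratios, 4.67, 2.36 and 2.92 for the first and 4.92, 2.31 and 3.06 for the second. Their neighbour SERPINB7, 66.3 kb from SERPINB2, went the other way in pairs 2 and 3, at 3.39 and 1.15 (adjusted p = 1.1e-09 and 0.0020, limma), and was at -0.42 and not called in pair 1 (0.19).

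On chromosome 4, 4 pseudogenes near the centromere were higher in 4N: AC119751.3 (chr4:49486926-49489554), AC119751.1 (chr4:49550032-49557400), SNX18P24 (chr4:49561479-49562149) and AC119751.4 (chr4:49579833-49580189). AC119751.1 had means of 0.00761, 0.202 and 0.415 RPM in 2N-1, 2N-2 and 2N-3 and of 0.709, 1.57 and 1.08 in 4N-1, 4N-2 and 4N-3. SNX18P24, with 5 reads in all 2N and 38 in all 4N libraries, rests on too few reads to be fitted. SNX18P25, 8.58 kb from AC119751.4 and no member, was called higher in all 3 pairs by limma, with log2 ratios of 1.92, 3.40 and 1.61 (adjusted p = 6.8e-04, 4.2e-07 and 0.0067). SNX18P23 and AC118282.1, 253 and 242 kb from AC119751.3, were called in pairs 1 and 2. AC119751.1 shares 763 bases with AC118282.1 and SNX18P24 671 with SNX18P23, whereas no copy elsewhere was found for AC119751.4. Whether reads of 1 such locus were counted at another was not tested. Without both libraries that stand apart the log2 ratio in pair 3 went from 1.46 to 0.78 for AC119751.3 and from 1.88 to 0.93 for AC119751.4. ANKRD20A5P and POTEC formed a neighbourhood on chromosome 18, and SNX18P13, 3.09 kb from ANKRD20A11P on chromosome 21, was called in pairs 1 and 2 at 3.10 and 2.61.

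The HOXA flank on chromosome 7 held SKAP2 and AC004080.6, a transcript inside the span of HOXA3. AC004080.6 had a median of 0.506 RPM in 2N (0.271 to 1.01) and 0.0760 in 4N (0.0235 to 0.126). It shares sequence with HOXA3, and whether its reads are those of HOXA3 was not tested. HOXA-AS2, which overlaps AC004080.6, was called lower in all 3 pairs by limma, at -2.03, -2.61 and -1.84 (adjusted p = 1.7e-04, 2.9e-06 and 9.1e-04). HOXA-AS2 missed the rule only by its low level (0.00858 RPKM), so nothing is read from these calls. NHP2P2, the nearest fitted gene between SKAP2 and the HOXA genes, was at -0.18, 0.52 and -0.23 and was not called in any pair. SNX10, 293 kb to the other side of SKAP2, was called lower in pairs 1 and 2 at -3.80 and -3.87 but stood at 0.73 in pair 3 (adjusted p = 0.19). On chromosome 11, TH, tyrosine hydroxylase of catecholamine synthesis, had 124 reads in 2N and 32 in 4N. It lay between AC068580.2 and the tetraspanin gene TSPAN32, which were also lower, while CD81-AS1 next to TSPAN32 was at 0.17, -0.11 and -0.28 and was not called.

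Most genes that overlap a member were not called with it, though the shares called lay above those of all genes. Of 9 fitted genes overlapping a member higher in 4N, 2, 1 and 1 were called higher in pairs 1, 2 and 3, beside 2.17%, 6.56% and 1.07% of all genes, and of 11 overlapping a member lower in 4N, 3, 2 and 2 were called lower, beside 2.58%, 7.48% and 1.48%. HOXA-AS2, which missed the rule only by its low level, is among the lower calls of each pair. With so few genes, nothing is read from these shares. The examples that follow, of overlap or of a start within 1 kb, were chosen because they were called, except POLRMT. WT1 overlaps its antisense gene WT1-AS (chr11:32435518-32458769, plus strand), which was at 1.30, 3.84 and 0.522 RPM in 2N and 0.0521, 0.0506 and 0.0877 in 4N. WT1 itself was at -3.80, -1.70 and -0.79 and was called in pairs 1 and 2 (adjusted p = 1.1e-07, 1.9e-04 and 0.14, limma). IL17RB, 0.190 kb from CHDH, was called higher in pairs 1 and 2, at 1.20 in pair 1, and stood at 0.51 in pair 3. APCDD1L, 0.248 kb from APCDD1L-DT, was at -1.75, -1.54 and -0.45, called in the same pairs, and LRRC63, 0.0720 kb from LCP1, was at 0.48, 1.97 and 1.99, called in pairs 2 and 3. POLRMT, a similarly close neighbour of HCN2, was at 0.13, -0.01 and -0.06 and not called. PTPRB, which overlaps AC025569.1, was at 1.16 and 1.14 in pairs 1 and 3 and -0.68 in pair 2, where AC025569.1 itself was highest. Whether counting used the strand is not given in the sources used here, and without it the reads of overlapping genes on opposite strands cannot be told apart.

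Farther neighbours called in all 3 pairs in the direction of the member were few. LYPD6B, a relative of LYPD6 115 kb away, was at -3.01, -1.49 and -2.41 (adjusted p = 1.8e-04, 0.015 and 0.0029, limma). HEPH, which encodes the copper oxidase hephaestin and lies 327 kb from EDA2R, was at 2.17, 1.47 and 3.26 (2.9e-04, 0.0026 and 6.7e-06). AC022335.1, SLCO1B7 and AC011604.2, 349 to 436 kb from SPX, were at 1.19 to 5.16 over the pairs. These 3 overlap one another, so the same reads may count for more than 1 of them. Closer to SPX, at 107 kb, SLCO1A2 was called lower in pairs 1 and 2, at -1.59 and -1.43, and stood at -0.61 in pair 3. MMADHC, on the other side of LYPD6, was at 0.00, -0.13 and -0.11 and not called.

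**Figure D4:**
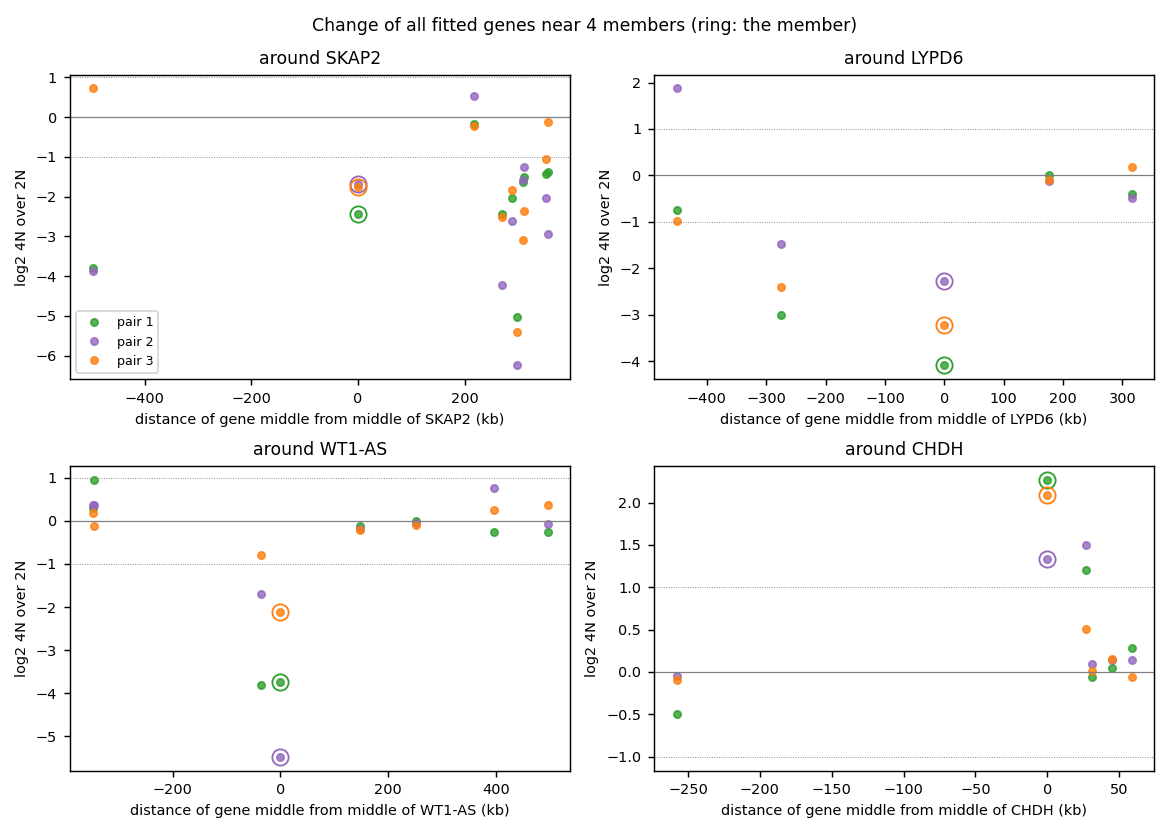
Log2 ratio of 4N to 2N for all fitted genes around SKAP2, LYPD6, WT1-AS and CHDH, by the distance in kb between gene middles (x axis); colours are the 3 pairs, rings mark the member, and dotted lines a 2-fold change. LYPD6B lies below -1 in all 3 pairs and WT1 in 2, while most other genes around LYPD6, WT1-AS and CHDH lie within 2-fold; the cluster right of SKAP2 is HOXA.

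Counted over all neighbourhoods, most neighbours did not change with the members. Of 252 fitted genes within 500 kb of a member higher in 4N and not overlapping it, 8.33%, 7.54% and 6.35% were called higher in pairs 1, 2 and 3, beside 2.17%, 6.56% and 1.07% of all genes. In the other direction 8, 26 and 7 of them were called lower. Of the 252 genes, 9 are UGT1A genes next to MSL3P1, which share exons and hence reads. All 9 were called higher in pairs 1 and 3 and lower in pair 2. Without them 4.94%, 7.82% and 2.88% of 243 genes were called higher, so the excess in pairs 1 and 3 rests in part on 1 locus. That pair 2 had more lower than higher calls rests on the same locus. The genes left that were called higher in all 3 pairs include AC022335.1, SLCO1B7 and AC011604.2, which overlap one another. They also include SNX18P25, which lies by the pseudogenes of chromosome 4. The calls left are therefore not all of independent genes. Of 260 genes near members lower in 4N, 4.23%, 13.1% and 2.31% were called lower, beside 2.58%, 7.48% and 1.48%, and 4, 20 and 1 of them were called higher. In pair 1 the share was 2.69% without library C of 2N-1, and in pair 3 it was 3.86% without C of 4N-3. The nearest fitted genes on either side gave a similar view: of 39 next to members higher in 4N, 27 were not called in any pair and 2 were called higher in all 3, and of 45 next to members lower in 4N, 31 and 1.

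The pathways that the members touch were read from lists of known genes. Of 39 fitted p53 target genes, 6, 21 and 5 were called higher in pairs 1, 2 and 3 by limma, beside 2.17%, 6.56% and 1.07% of all genes. None was called lower. At an unadjusted p under 0.05 by limma, 31, 35 and 24 of the 39 were higher and 0, 1 and 2 lower. By that measure 22 had 1 direction in all 3 pairs, the genes that pass the rule included. The share of all genes at that unadjusted p is not given here. In each pair the higher calls include 4 genes that pass the rule, named below. Most of the higher calls in pairs 1 and 3 thus follow from how genes were chosen. The list medians were 0.49, 1.08 and 0.47. EDA2R is the only gene of the list among the 64. Those called in all 3 pairs were EDA2R, CDKN1A, BTG2 and SPATA18, which all pass the rule, so that their calls follow from how they were chosen and nothing is read from them beside the 0.245% of all genes called higher and 0.171% called lower in all 3 pairs. The same holds for the genes of other lists that pass the rule: PLAT, SERPINB2, CCND2, MBNL3, ESRP1 and DLX6. In pair 3 the count was 3 without library C of 4N-3. Of 7 fitted genes of the plasminogen system, 3, 2 and 1 were called higher and 1, 2 and 1 lower in pairs 1, 2 and 3, beside the shares of all genes given above. In each pair PLAT, the tissue activator, is among the higher and SERPINB2, an inhibitor, among the lower calls. Both pass the rule and are the only calls in pair 3, so no direction of the system is read from them. Of 18 G1 cyclins, CDKs and CDK inhibitors, CCND2 and CDKN1A were called in all 3 pairs, but a single gene was when B of 2N-3, C of 2N-3 or library C of 4N-3 was left out. Of 18 splicing regulators, MBNL3 was called higher and ESRP1 lower, of 51 developmental regulators DLX6 lower, and of 9 drug efflux pumps ABCB1 was called in all 3 pairs, though it did not pass the rule. With a pseudocount of 0.5 RPM no efflux pump was called in all 3 pairs. With log2(RPKM + 0.5) and a minimum of 1 RPKM, none of these lists had such a gene except the plasminogen system, with 1. No gene was called in all 3 pairs among 32 cadherins, 27 imprinted genes and 4 cancer-testis genes by limma or by limma-voom. At an unadjusted p under 0.05 with 1 direction in all pairs there were 1, 1 and 0. Beyond EDA2R, SERPINB2 and the marker MBP, none of the 64 members was in these lists.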

How the data were processed

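RNA-seq of 18 libraries, 3 from each of 6 clones, was analysed from the authors' deposited table of RPKM values. The submitters' processing notes name CASAVA 1.8.2, TopHat2 and edgeR and the build hg19; how reads in several genes or on the opposite strand were counted is not given in the sources used here. RPKM values of a gene were whole multiples of 1 read in each library: all values of all 40853 genes above 0 came out whole within 0.01 reads. The recovered reads per M (RPM) follow the authors' divisors (36.1 M to 54.8 M), which depart from TMM sizes by -0.015 to 0.03 on the log2 scale. Gene lengths equalled the genomic span within 0.5% for 87.2% of 24742 genes with 50 reads. Positions came by identifier from GENCODE 29 (GRCh38; 52338 identifiers matched) and promoters from RefSeq.

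The 22820 genes with 0.25 RPM in 3 libraries were fitted with limma 3.58.1 (R 4.3.3) on log2(RPM + 0.05), a scale that understates changes of low genes, with a mean per clone and Benjamini-Hochberg adjustment; calls needed an adjusted p under 0.05 and 2-fold. All libraries entered 1 fit so that they share 1 estimate of the spread, and replicates differed by more than sampling noise (chi-square per gene of 1.7 or more). Read intervals and floors cover counting error only. Shared sequence was searched with BLAST 2.17.0. The recovery and the fit were tested on simulated data. Members, lists and tests were chosen with earlier results of these data known. The rule for naming took the members of a neighbourhood, the 30 other members with the most reads, those beside each limit of the rule, the nearest fitted neighbours, neighbours called in all 3 pairs and listed genes called in all 3 pairs. Of these, most members without a gene name and many nearest neighbours are not named in the text. Named after their values were seen were SPX, CSTA, CCL28, ANKRD20A11P, ZNF781, BEND4, KIAA0040, IGSF10, ZNF790, MAP10, SEMA3F-AS1, SMIM25, ERICH5, LYNX1, ENSG00000272992 and neighbours called in 1 or 2 pairs.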

Additional observations from a re-analysis of the deposited data

Results flagged for a closer look

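Among the nearest and overlapping fitted genes of members, 2 were called in opposite directions in different pairs. The difference between pairs was tested by limma with Benjamini-Hochberg adjustment. Farther neighbours were not screened in this way, and some of them reversed too. FMOD, 154 kb from CHI3L1, was at 3.38, 1.52 and -1.83 in pairs 1, 2 and 3 (adjusted p = 4.4e-09 for the difference, limma). KHK, the ketohexokinase gene that overlaps CGREF1, was lower in 4N in pair 1, at a log2 ratio of -1.41, higher in pair 2, at 1.24, and at -0.17 in pair 3 (adjusted p = 9.10e-06 for the difference). CGREF1 itself was higher in all 3 pairs, and most so in pair 2. HJURP, a chaperone of the centromeric histone that lies 10.9 kb from MSL3P1, was at -1.12, 1.14 and 0.36 (adjusted p = 3.48e-06), while MSL3P1 was higher in all 3.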

How the results depend on the processing

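The number of members, 36 higher and 28 lower in 4N, depends on the limits of the rule: 66 and 51 with 1.5-fold, 15 and 12 with 3-fold, 19 and 11 at 0.1 RPKM, 6 and 2 at 1 RPKM, and 147 and 176 where libraries may overlap. Leaving out each library gave 34 to 40 and 25 to 32. Within 100 kb there were 3 neighbourhoods. With a pseudocount of 0.5 RPM the calls fell to 268 higher and 348 lower in pair 1, 967 and 895 in pair 2, 129 and 151 in pair 3, and to 288 among diploid and 2802 among tetraploid clones (members 13 and 20); neighbours called were 4.76% near members higher in 4N in pair 1, and 1.92%, 8.46% and 1.15% near those lower in 4N, and 0 drug efflux pumps were called in all 3 pairs. With log2(RPKM + 0.5) and 1 RPKM in 3 libraries, fewer genes were tested and the calls were 63 and 78, 239 and 231, and 14 and 18 in the pairs, 28 and 826 among clones (members 2 and 5), 1.11%, 2.22% and 0% of neighbours higher and 0%, 7.21% and 0% lower, p53 targets 1, 13 and 1 higher and 0 in all pairs, and 0 in all pairs for G1 genes, developmental regulators, efflux pumps and splicing regulators, with 1 for the plasminogen system. Within 100 kb, 15.3% and 12.9% of neighbours were higher in pairs 1 and 3 and 0% lower in pair 3; within 1 Mb 5.41% and 3.74% were higher in those pairs. Without the UGT1A genes, an alternative chosen after seeing the data, these were 4.94% and 2.88%. Without both 2N-3 A and 4N-3 C, 3.49% of neighbours were lower in pair 3. Leaving out 1 library moved the genes called higher in pair 3 from 244 to between 206 and 426 (386 without B and 426 without C of 2N-3), neighbours lower in pair 1 to between 2.69% and 4.30% and in pair 3 to between 1.93% and 3.86%, p53 targets higher in pair 3 to between 3 and 5, and G1 genes called in all pairs to between 1 and 2. TMM scaling, limma-voom and no filter moved no count by over 1.5 times. The replicate letters do not pair the libraries (correlation of deviations between clones for the same letter -0.338 to 0.192, median 0.0042, over 0.1 in 4 of 45); 2 of 18 libraries correlated best with their own letter. With the replicate block, 20 members were called among diploid and 31 among tetraploid clones, and the pairs had 480 and 580, 1489 and 1705, and 234 and 326 calls. For single members, 4217 of the values in pairs stayed within 1 SD and 280 moved, none with a change of sign. Depth limits the lowest members: SNX18P24 and ENSG00000272992 had too few reads to be fitted.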

Other observations

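The member ENSG00000272992, without an entry in the annotation used, was the only such gene lower in 4N. It had 64 reads in the 9 2N libraries, 4 to 10 in each, and 12 in the 9 4N libraries, with none in 4N-3.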
